A study of Mus musculus with 42 samples.

Results

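The interferon-inducible GTPases described here were 10 genes of the guanylate-binding protein (GBP) and immunity-related GTPase (IRG) families. They were taken by symbol from a count table of 45317 genes. The GBP genes were Gbp2, Gbp3, Gbp4, Gbp6 and Gbp7, and the IRG genes were Irgm1, Irgm2, Igtp, Iigp1 and Tgtp1. They were chosen from families whose RNA was known to be higher under TBT and AGN194204 in these same libraries, so their RNA differences from DMSO are given as a description, with no p-value. All 10 passed the filter on low counts, which left 12529 genes. The cells were mesenchymal stromal cells (MSCs) from the bone marrow of C57BL/6 mice, used undifferentiated at passage 9-10 and treated for 48 h. The treatments were tributyltin (TBT, 50 nM), an organotin that activates the retinoid X receptors (RXR) and PPARγ, AGN194204 (100 nM), a synthetic RXR agonist, rosiglitazone (ROSI, 100 nM), a PPARγ agonist, and the solvent dimethyl sulfoxide (DMSO, 0.1%). RNA was sequenced in 6 libraries per treatment. The promoter mark H3K4me3 and the Polycomb mark H3K27me3 were mapped in 4 TBT and 4 DMSO libraries each. There were 2 input libraries for these marks, for TBT and for DMSO. The cells were a purchased stock, so the replicates do not stand for separate mice, and nothing in the labels says whether they came from separate cultures. P-values therefore measure only the spread between these libraries, which may be technical.

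Interferons bind receptors on the cell surface and act through JAK kinases and STAT proteins. The regulators they activate bind GAS elements or the interferon-stimulated response element (ISRE) in the promoters of target genes. GBP and IRG proteins are GTPases made in response to interferons, type II interferon above all, and gather on vacuoles that hold bacteria or parasites. Among the IRG proteins, Irgm1, Irgm2 and Igtp (Irgm3) are regulators that reside on the cell's own membranes and keep the effectors in check. Iigp1 (Irga6) and Tgtp1 (Irgb6) are effectors that coat the pathogen vacuole. Among the GBP proteins, Gbp2 is targeted to such vacuoles, Gbp7 has been tied to assembly of the phagocyte oxidase, and Gbp4 has been described as a brake on the interferon regulator Irf7.

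The genes lay in clusters, and RefSeq (GRCm38.p6, the build of the files) placed Gbp7, Gbp3 and Gbp2 within 107.7 kb of chromosome 3. Gbp4 (chr5:105115767-105139586) and Gbp6 (chr5:105270702-105295871) lay on chromosome 5. On chromosome 11, Irgm1 (chr11:48865245-48871420) and Tgtp1 (chr11:48985329-48992246) formed one pair and Igtp (chr11:58199556-58207592) and Irgm2 (chr11:58214977-58222783) another. The RefSeq table held a promoter for 7 of the 10 genes (8 promoters of 300 bases, from 250 before the start to 50 after it), and Gbp4, Gbp6 and Iigp1 had no entry there.

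The 120 bases before the start of 5 of these genes are shown to place the interferon response motifs, with matches in capitals. The core of an ISRE was searched as GAAANNGAAA and a GAS element as TTCNNNGAA, each on both strands, so that TTTCNNTTTC is the ISRE core on the other strand. Each line reads 5′ to 3′ on the strand of its gene and ends at the base before the start.
Irgm2 (chr11:58214857-58214976, plus strand): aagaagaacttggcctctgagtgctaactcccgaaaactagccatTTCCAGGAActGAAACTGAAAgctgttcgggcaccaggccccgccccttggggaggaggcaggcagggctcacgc
Igtp (chr11:58199436-58199555, plus strand): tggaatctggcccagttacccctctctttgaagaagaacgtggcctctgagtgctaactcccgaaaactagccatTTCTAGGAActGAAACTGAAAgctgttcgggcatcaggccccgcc
Tgtp1 (chr11:48992247-48992366, minus strand): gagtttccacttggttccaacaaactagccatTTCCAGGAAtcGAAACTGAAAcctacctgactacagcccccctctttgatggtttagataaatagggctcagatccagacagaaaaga
Irgm1 (chr11:48871421-48871540, minus strand): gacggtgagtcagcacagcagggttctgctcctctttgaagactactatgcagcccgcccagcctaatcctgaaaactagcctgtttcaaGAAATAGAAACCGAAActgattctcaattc
Gbp2 (chr3:142620543-142620662, plus strand): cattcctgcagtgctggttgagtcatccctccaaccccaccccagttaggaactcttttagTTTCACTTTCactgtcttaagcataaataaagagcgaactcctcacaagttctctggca

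In Irgm2, Igtp and Tgtp1 a GAS element was followed after 2 bases by an ISRE core. Searched as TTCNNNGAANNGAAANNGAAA, this arrangement was in 5 of all 32851 promoters of the table (0.0152%), and all 5 were IRG genes, the other two being Tgtp2 and Gm12185. These promoters are not independent examples, because IRG genes are related copies. The promoters of Irgm2 and Igtp shared an identical run of 61 bases, and those of Irgm2 and Tgtp1 a run of 20 bases that includes the GAS element. Irgm1 held a pair of overlapping ISRE cores at positions -30 and -24 from its start, and Gbp2 held an ISRE core at -59 on the other strand.

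All 7 genes with a promoter entry held at least 1 ISRE core, in 7 of 8 promoters, against 3.44% of all promoters in the table. The remaining promoter was that of a second start of Gbp3, whose first start had ISRE cores at -45 and -39. A GAS element was in 4 of the 8 promoters, against 8.3% of all promoters. Gbp7, which is not printed, held GAS elements at -106 and -87 and an ISRE core at -53. Direct repeats bound by RXR heterodimers, searched as AGGTCANAGGTCA and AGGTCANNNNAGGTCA, were in 0 of the 8 promoters, against 0.0396% and 0.0152% of all promoters. These exact letters are so rare over all promoters that 0 of 8 cannot show whether the genes lack RXR sites. Sites with other letters or outside this window were not searched. A match describes letters in this window and does not show that a factor binds there.

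Counts on genes numbered 3801758 to 5347365 per RNA library. Levels are given as CPM, gene counts scaled to a library size that TMM adjusts, and they are compared between treatments, not between genes, because no transcript lengths were used. In bulk libraries, fewer cells of a type and less RNA per cell cannot be told apart. Mesenchymal markers summed to 3005 to 3597 CPM in TBT libraries and 3095 to 3280 CPM in DMSO libraries, with Col1a1 and Cd44 among them. Of 11 macrophage markers, Adgre1 and Tyrobp had 0 counts in all 24 libraries, and the sum of the list was 58.6 to 72.8 CPM under TBT, 59.8 to 70.0 CPM under AGN194204, 49.4 to 56.6 CPM under rosiglitazone and 56.6 to 63.5 CPM under DMSO. In edgeR's test 0 of the 4 macrophage markers tested passed against DMSO under any compound. Over all genes 28.9% passed under TBT, 24.1% under AGN194204 and 1.04% under rosiglitazone, so 0 of 4 cannot show that these markers stayed level. In the same test 1 had an unadjusted p under 0.05 under TBT and under AGN194204. Against rosiglitazone 1 of the 4 passed, Cd14, beside 28.7% of all genes for TBT and 24.7% for AGN194204. Cd14 was higher by 0.27 ± 0.07 on the log2 scale under TBT (adjusted p = 0.00240) and under AGN194204 (0.27 ± 0.07, adjusted p = 0.00311), in both without overlap. The part of macrophage RNA in the GTPase values was not tested. Markers of T and NK cells summed to at most 1.76 CPM and markers of B cells to at most 0.753 CPM in any library.

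All 10 GTPases had higher RNA under TBT and AGN194204 than under DMSO, while their rosiglitazone libraries overlapped the DMSO libraries. The log2 fold changes lay between 0.38 and 1.07 for TBT, with a median of 0.78 against -0.01 over all genes tested. For AGN194204 they lay between 0.43 and 1.23, with a median of 0.86 against -0.00266 over all genes. For rosiglitazone they lay between -0.25 and 0.15, with a median of -0.05 against 0.00 over all genes. In edgeR's quasi-likelihood test 10 of 10 passed adjusted p under 0.05 for TBT, beside 28.9% of all genes in either direction, and 10 of 10 for AGN194204, beside 24.1%. For rosiglitazone 0 of 10 passed in either direction, beside 1.04% of all genes, and 0 of 10 had an unadjusted p under 0.05. These counts rest on the comparisons that chose the genes, so nothing is read from them. Set against rosiglitazone, 10 of 10 were called higher under TBT, beside 15.2% of all genes called higher and 28.7% called in either direction. Under AGN194204 10 of 10 were called higher, beside 13.5% called higher and 24.7% called in either direction. Ranges did not overlap for 4 of 10 between TBT and rosiglitazone, beside 6.78% of all genes higher without overlap, and for 9 of 10 between AGN194204 and rosiglitazone, beside 6.59%. These comparisons share the TBT and AGN194204 libraries with those against DMSO.

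Among the GBP genes, Gbp6 separated the treatments most plainly. It stood at 24.6 to 36.6 CPM (median 27.5) in 6 TBT libraries, 23.5 to 36.0 CPM (median 32.5) in 6 AGN194204 libraries, 13.0 to 22.4 CPM (median 17.5) in 6 rosiglitazone libraries and 16.1 to 18.99 CPM (median 17.2) in 6 DMSO libraries. Every TBT and AGN194204 library lay above every DMSO library, while the rosiglitazone libraries lay on either side of the DMSO range. The log2 fold change over DMSO was 0.74 ± 0.12 (SE) for TBT, 0.84 ± 0.12 for AGN194204 and 0.04 ± 0.13 for rosiglitazone.

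Gbp3 stood at 92.8 to 156 CPM (median 129) under TBT, 109 to 153 CPM (median 129) under AGN194204, 53.7 to 95.7 CPM (median 65.5) under rosiglitazone and 66.3 to 84.8 CPM (median 73.0) under DMSO. Its TBT and AGN194204 libraries did not overlap the DMSO libraries, and 1 rosiglitazone library lay above all DMSO libraries. Gbp7 ranged from 63.3 to 106 CPM under TBT, 74.1 to 99.7 CPM under AGN194204, 39.2 to 63.6 CPM under rosiglitazone and 40.7 to 56.2 CPM under DMSO, again with no overlap between either RXR-activating compound and DMSO. Under TBT the difference was 0.73 ± 0.10 for Gbp3 and 0.76 ± 0.10 for Gbp7 on the log2 scale.

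Gbp2 was less evenly raised, at 37.1 to 71.5 CPM (median 41.0) under TBT, 38.7 to 55.7 CPM (median 51.3) under AGN194204, 26.8 to 34.5 CPM (median 31.4) under rosiglitazone and 25.7 to 37.5 CPM (median 32.7) under DMSO. The lowest TBT library lay just inside the DMSO range, and the highest, replicate 5, lay well above the other five. Gbp4 was the least counted of the 10, with 16 to 30 counts per library under TBT, 14 to 28 under AGN194204, 8 to 15 under rosiglitazone and 8 to 17 under DMSO. Its level was 3.01 to 7.37 CPM under TBT and 1.87 to 3.33 CPM under DMSO, so that 5 of 6 TBT libraries lay above all DMSO libraries. Gbp4's log2 fold change over DMSO, 1.07 ± 0.25 for TBT, had the widest error of the 10.

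**Figure D1:**
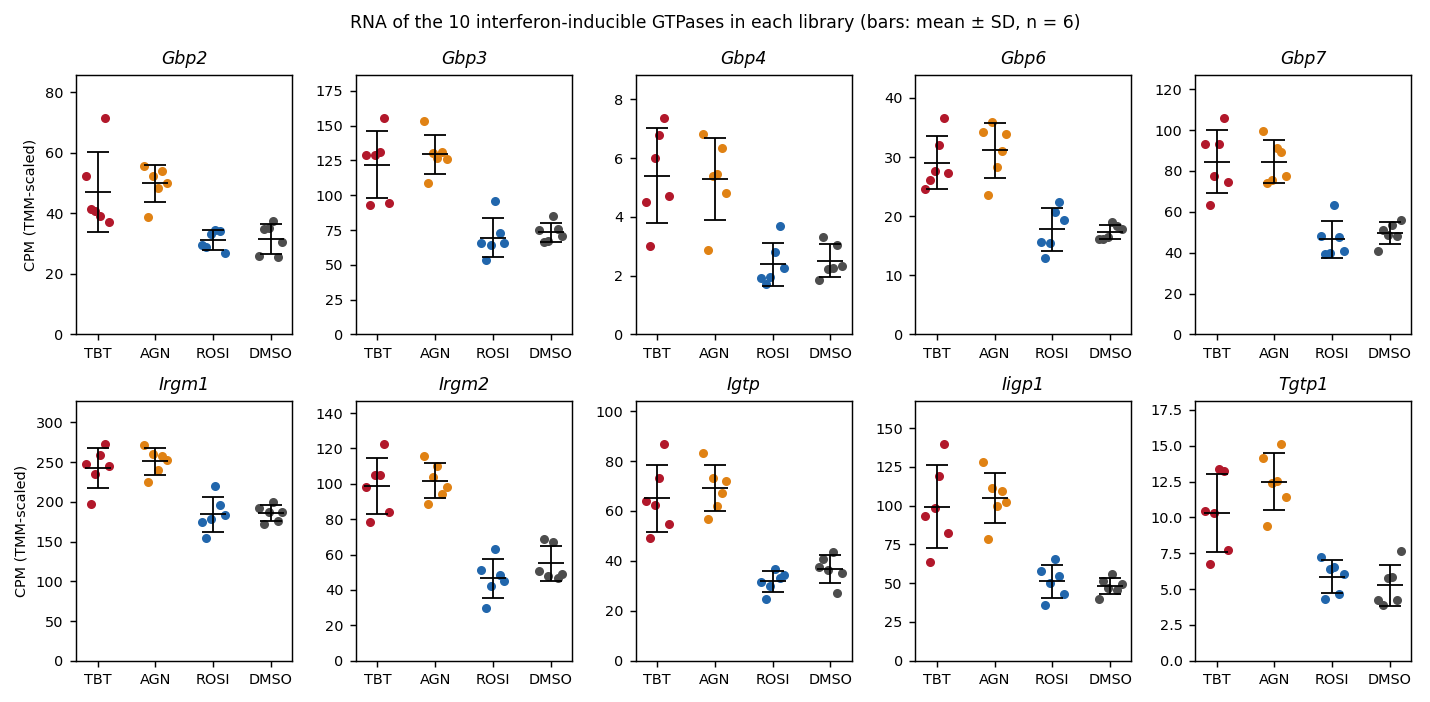
RNA of each gene in CPM (vertical axes, starting at 0) in the 6 libraries of TBT, AGN194204 (AGN), rosiglitazone (ROSI) and DMSO, with the mean and SD. The TBT and AGN194204 points of Gbp6 (23.5 CPM and more) stand clear of its DMSO points (at most 18.99 CPM), and the rosiglitazone points fall around them.

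Of the IRG regulators, Igtp stood at 49.1 to 86.8 CPM (median 63.2) under TBT, 56.7 to 83.05 CPM (median 69.6) under AGN194204, 24.9 to 36.8 CPM (median 32.3) under rosiglitazone and 27.3 to 43.6 CPM (median 36.9) under DMSO. Irgm2, its neighbour on chromosome 11, stood at 78.4 to 122 CPM under TBT, 88.7 to 116 CPM under AGN194204, 29.9 to 63.3 CPM under rosiglitazone and 46.8 to 68.6 CPM under DMSO. For this pair neither RXR-activating compound overlapped DMSO, and 3 rosiglitazone libraries of Irgm2 lay below every DMSO library. The log2 fold changes under rosiglitazone, -0.25 ± 0.12 for Irgm2 and -0.22 ± 0.12 for Igtp, were the lowest of the 10.

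Irgm1, the third regulator, had the smallest difference. It stood at 197 to 273 CPM (median 246) under TBT, 224 to 272 CPM (median 255) under AGN194204, 155 to 221 CPM (median 181) under rosiglitazone and 173 to 199.8 CPM (median 187) under DMSO. The lowest TBT library lay inside the DMSO range and the AGN194204 libraries were all above it. Its log2 fold change over DMSO was 0.38 ± 0.06 for TBT, a 1.30-fold difference.

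The effector gene Iigp1 (chr18:60373616-60392634) stood at 63.7 to 139.6 CPM (median 96.0) under TBT, 78.6 to 128 CPM (median 106) under AGN194204, 35.9 to 65.9 CPM (median 52.6) under rosiglitazone and 40.0 to 55.8 CPM (median 48.2) under DMSO. TBT libraries were spread over more than the whole AGN194204 range, yet all stood above all DMSO libraries. Tgtp1, with 18 to 58 counts per library, stood at 6.77 to 13.4 CPM under TBT, 9.42 to 15.1 CPM under AGN194204, 4.33 to 7.24 CPM under rosiglitazone and 3.92 to 7.64 CPM under DMSO. For Iigp1 the log2 fold change over DMSO was 1.03 ± 0.13 under TBT and 1.12 ± 0.13 under AGN194204. For Tgtp1 it was 0.95 ± 0.19 under TBT and 1.23 ± 0.19 under AGN194204. Tgtp1 is nearly identical to Tgtp2, and reads of the pair may have been split in counting, so its own level is uncertain, as is that of Gbp6 beside its close relative Gbp10.

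The ranges of TBT and DMSO libraries did not overlap for 6 of the 10 genes (Gbp3, Gbp6, Gbp7, Irgm2, Igtp and Iigp1), beside 6.73% of all genes in that direction. AGN194204 and DMSO did not overlap for 9 of the 10, beside 6.90%, and Gbp4 was the exception. All 10 genes overlapped between rosiglitazone and DMSO, where 0.838% of all genes were higher and 0.678% lower without overlap. When libraries were scaled by the ERCC spike-in RNA in place of gene counts, the log2 fold changes over DMSO lay between 0.46 for Irgm1 and 1.14 for Gbp4 under TBT and between 0.45 for Irgm1 and 1.24 for Tgtp1 under AGN194204. That scaling raised the median gene by 0.08 on the log2 scale under TBT and changed the calls over all genes to 1802 higher and 293 lower, against 1878 higher and 1745 lower.

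TBT was then compared directly with AGN194204, a difference that was not used to choose the genes, although the doses were not the same (50 nM and 100 nM). In edgeR's test 0 of 10 genes passed adjusted p under 0.05, beside 0.846% of all genes in either direction, and 0 of 10 had an unadjusted p under 0.05. DESeq2 also gave 0 of 10. The ranges of the compounds overlapped for all 10 genes, where 0.423% of all genes were higher and 0.495% lower without overlap. TBT over AGN194204 gave log2 fold changes between -0.28 ± 0.17 for Tgtp1 (95% interval -0.62 to 0.06, adjusted p = 0.604) and 0.02 ± 0.22 for Gbp4 (95% interval -0.43 to 0.48, adjusted p = 0.994). The value was under 0 for 9 of 10 genes, with a median of -0.08 against -0.00187 over all genes. The interval was narrowest for Irgm1, at -0.17 to 0.07. These intervals leave room for differences of the sizes they span.

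**Figure D2:**
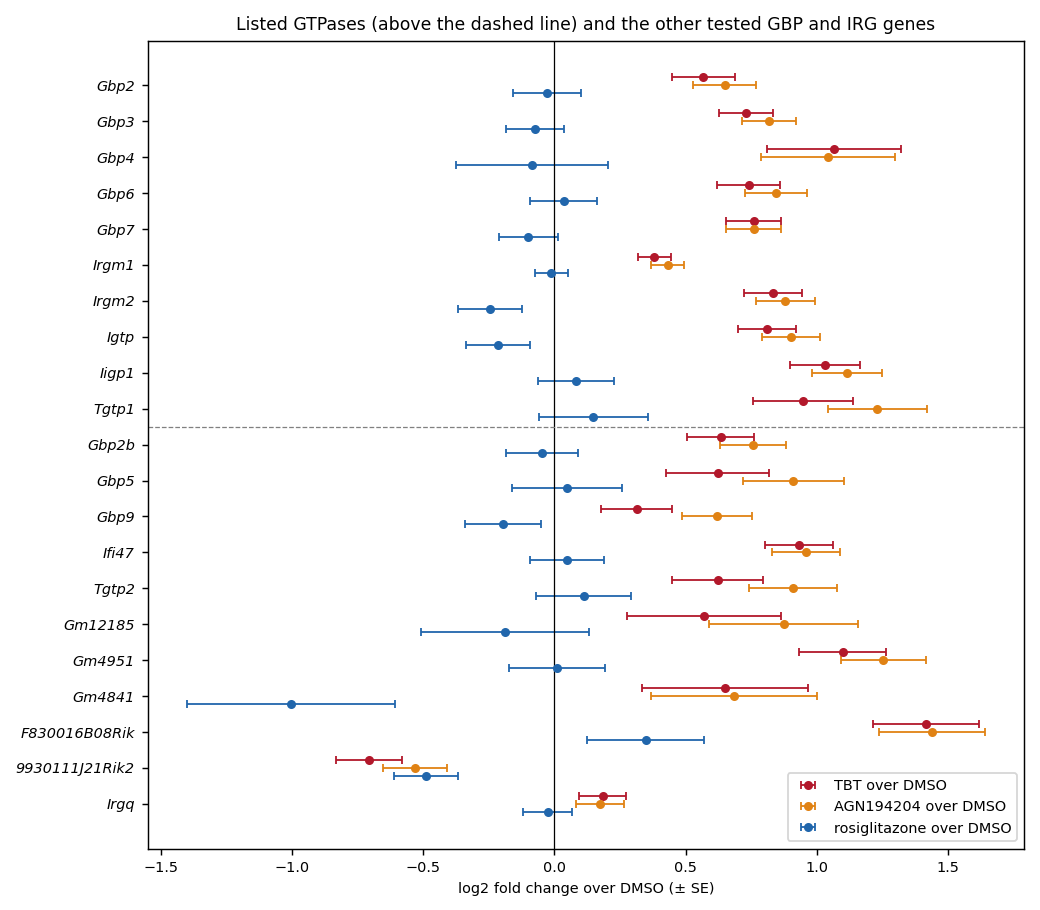
Log2 fold changes over DMSO with their SE (horizontal axis) for TBT, AGN194204 and rosiglitazone, for the 10 listed genes and, under the dashed line, the other tested genes of the families. For the listed genes the TBT and AGN194204 points lie between 0.38 and 1.23 and the rosiglitazone points between -0.25 and 0.15.

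The 10 genes also varied together between replicate libraries of one treatment. After each treatment mean was subtracted, all 45 pairs of genes had a positive Pearson r over the 24 libraries, from 0.40 (Gbp4 with Tgtp1) to 0.85 (Gbp3 with Irgm1), with a median of 0.66. All points share the library scaling, and r is given as a description. Within treatments the median r over pairs was 0.87 for TBT, 0.81 for AGN194204, 0.67 for rosiglitazone and 0.29 for DMSO, each over 6 libraries. Iigp1 followed the mean of the other nine most closely, with an r of 0.96, and Tgtp1 least, with 0.63.

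Several libraries stood apart for all 10 genes. All 10 genes lay above their treatment mean in TBT replicate 5 (by 0.40 on average on the log2 scale), AGN194204 replicate 1 (0.23) and rosiglitazone replicate 4 (0.31). All 10 lay under it in replicate 2 of TBT (-0.39), AGN194204 (-0.33) and rosiglitazone (-0.35), while DMSO replicate 2 stood at 0.05 with 6 of 10 above. Depth moved with this deviation, with an r of -0.47 over the 24 libraries within treatments, and its part in the deviation was not tested. The numbers of the replicates were not found to pair libraries across treatments over all genes.

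**Figure D3:**
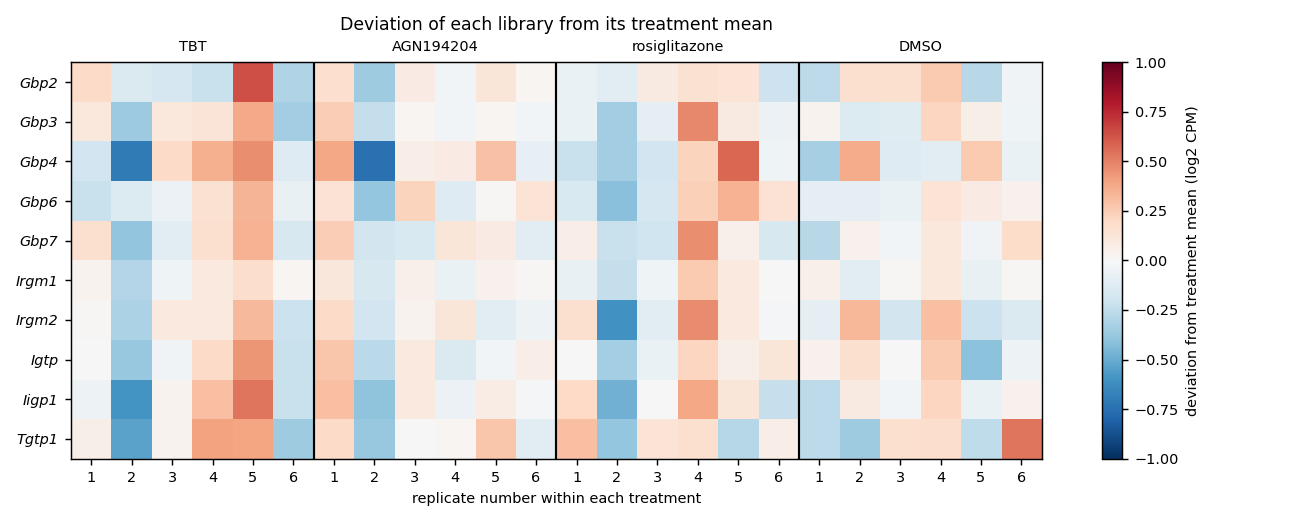
Deviation of each library from its treatment mean in log2 CPM (colour, red above and blue below) for the 10 genes (rows) and the 24 libraries (columns, by treatment and replicate number). Whole columns share a colour, as in TBT replicate 5 (mean 0.40) and TBT replicate 2 (mean -0.39).

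The 5 other genes most like the mean of the 10 by this measure, among the 10394 genes whose log2 CPM averaged 3 or more, were I830012O16Rik (r of 0.93), Tor3a (0.91), Trim12c (0.90), Lynx1 (0.90) and Irf7 (0.90). The median r over those genes was 0.01. Irf7, a transcription factor of the type I interferon response, averaged 243 CPM under TBT, 246 CPM under AGN194204, 129 CPM under rosiglitazone and 131 CPM under DMSO. Lynx1 had smaller differences, with log2 fold changes over DMSO of 0.34 ± 0.09 under TBT (adjusted p = 0.00430, edgeR) and 0.34 ± 0.09 under AGN194204 (adjusted p = 0.00477).

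Of 18 other GBP and IRG genes in the table, 11 passed the filter on low counts. These families were known to be higher in these same libraries, so the p-values of these genes against DMSO are no independent support. Under TBT 6 of the 11 rose and 1 fell in edgeR's test, beside 28.9% of all genes called in either direction, and under AGN194204 8 rose and 1 fell, beside 24.1%. F830016B08Rik rose by 1.42 ± 0.20 (adjusted p = 4.16e-07) and Gm4951 by 1.10 ± 0.17 (adjusted p = 1.43e-06) on the log2 scale under TBT, and both are IRG genes on chromosome 18, near Iigp1. Ifi47 (Irgd), an IRG effector, rose by 0.93 ± 0.13 under TBT (adjusted p = 3.5e-07). Gbp2b (Gbp1) rose by 0.63 ± 0.13, Gbp5, which has been tied to the NLRP3 inflammasome, by 0.62 ± 0.20, and Tgtp2 by 0.62 ± 0.17.

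The other tested family genes did not pass under TBT. Their log2 fold changes were 0.31 ± 0.14 for Gbp9 (adjusted p = 0.0814), 0.57 ± 0.29 for Gm12185, 0.65 ± 0.32 for Gm4841 and 0.18 ± 0.09 for Irgq. Under AGN194204 Gbp9 rose by 0.62 ± 0.13 (adjusted p = 0.000437), but the difference between the compounds for Gbp9, -0.31 ± 0.13, did not pass (adjusted p = 0.365, edgeR). Gm12185 rose by 0.87 ± 0.29 under AGN194204 (adjusted p = 0.0187), a call that was absent with spike-in scaling. The IRG-like gene 9930111J21Rik2 went the other way. It stood at 10.5 to 14.3 CPM under TBT and 17.1 to 23.2 CPM under DMSO, with no overlap, and fell by 0.71 ± 0.13 under TBT (adjusted p = 2.65e-05), by 0.53 ± 0.12 under AGN194204 (adjusted p = 0.00107) and by 0.49 ± 0.12 under rosiglitazone (adjusted p = 0.0304). With spike-in scaling its fall under rosiglitazone no longer passed.

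Of 5 other large GTPases made under interferon, 2 passed the filter on low counts, and both rose under TBT and under AGN194204. Over all genes 28.9% were called in either direction under TBT and 24.1% under AGN194204. Mx1, an antiviral GTPase, stood at 4.13 to 10.6 CPM under TBT and 0.848 to 3.62 CPM under DMSO and rose by 1.83 ± 0.33 (adjusted p = 1.88e-05). Mx2 rose by 0.68 ± 0.15 under TBT (adjusted p = 0.000463).

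Interferons themselves were hardly counted. Ifng, the type II interferon, had 0 counts in all 24 libraries, which allows up to 0.0285 CPM over all libraries at 3 counts, counting error only. Ifnb1 had 15 counts in 6 TBT libraries, 14 in 6 AGN194204 libraries, 9 in 6 rosiglitazone libraries and 9 in 6 DMSO libraries and was not tested. Of 15 ligands and inducers, Il15 alone passed the filter. Il15, a cytokine of lymphocyte survival, stood at 4.48 to 10.3 CPM under TBT and 1.40 to 5.29 CPM under DMSO and rose by 1.38 ± 0.27 (adjusted p = 7.47e-05, edgeR). Of 6 interferon receptor genes, 5 were tested and 0 passed in either direction under TBT, AGN194204 or rosiglitazone. Over all genes 28.9%, 24.1% and 1.04% passed, so 0 of 5 cannot show that these genes differ from all genes. In edgeR 0 of 5 had an unadjusted p under 0.05 under TBT or AGN194204 and 1 of 5 under rosiglitazone. Their log2 fold changes under TBT lay between -0.01 and 0.12.

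Between receptors and target genes, 7 of 12 tested JAK, STAT and IRF genes rose under TBT, beside 28.9% of all genes called either way. Under AGN194204 6 of 12 rose, beside 24.1%, and none fell under either compound. With spike-in scaling 7 rose under TBT and 5 under AGN194204. Stat2 rose by 0.63 ± 0.07 under TBT (adjusted p = 9.77e-09) and Irf7 by 0.88 ± 0.10 (adjusted p = 7.44e-09). Irf9, a DNA-binding partner of STAT2, rose by 0.41 ± 0.06. Irf1, which is known to act on GBP genes, stood at 56.0 to 74.8 CPM under TBT and 58.8 to 83.3 CPM under DMSO, a log2 fold change of -0.12 ± 0.07 that did not pass (adjusted p = 0.205).

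Of 9 inhibitors of interferon signalling, 3 rose and 1 fell under TBT and 4 rose and 1 fell under AGN194204, where 28.9% and 24.1% of all genes were called. Usp18, which blocks the type I receptor, rose by 0.95 ± 0.09 under TBT (adjusted p = 2.1e-10), and Irf2bp2 by 0.22 ± 0.04 and Socs3 by 0.27 ± 0.07. The phosphatase gene Ptpn2 fell by 0.23 ± 0.08 under TBT (adjusted p = 0.0218), and with spike-in scaling this call was absent. Under AGN194204 that scaling left 2 of the 4 rises and 0 falls, and the calls of Ptpn2 and Socs3 were among those absent. Of 23 genes known for type II interferon, 11 were tested, and 7 rose under TBT and 7 under AGN194204, beside the same shares of all genes. Tap1, the peptide transporter of antigen presentation, rose by 1.10 ± 0.12, the chemokine gene Cxcl10 by 0.62 ± 0.09 and Nlrc5, an activator of class I genes, by 0.99 ± 0.19 under TBT. The others did not pass the filter on low counts, and H2-Aa, H2-Ab1 and H2-Eb1 had 0 counts in every library.

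GBP and IRG proteins act together with the ATG8 conjugation machinery and with ubiquitin ligases. Of 16 such genes 6 rose under TBT, beside 28.9% of all genes called in either direction, and 5 under AGN194204, beside 24.1%, and none fell. Of all 12529 genes 1878 were called higher under TBT, a smaller share than 6 of 16. Under AGN194204 the share of all genes called higher was likewise smaller than 5 of 16. The difference between this list and all genes was not tested. With spike-in scaling 5 of the 16 rose under TBT and 4 under AGN194204. Trim21 rose by 0.71 ± 0.09 and Rnf213, a ligase that coats intracellular bacteria, by 0.87 ± 0.12, while Becn1 rose by 0.31 ± 0.06 and the conjugation enzyme gene Atg5 had a log2 fold change of -0.03 ± 0.08. Of 9 inflammasome genes 2 were tested and 0 passed in edgeR under TBT or AGN194204, beside 28.9% and 24.1% of all genes. At an unadjusted p under 0.05 in edgeR there were 0 and 1 of these 2 genes. They were Casp4 (0.53 ± 0.34 under TBT) and Gsdmd (-0.03 ± 0.12). Of 6 enzymes of prenylation, the lipid modification that anchors some GBP proteins, Icmt alone rose, beside the same shares of all genes. Its rise was 0.26 ± 0.07 under TBT and 0.29 ± 0.07 under AGN194204. Under AGN194204 that call was absent with spike-in scaling. Under rosiglitazone 9930111J21Rik2 was the one call among the tested genes of these family and pathway lists, beside 1.04% of all genes.

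H3K4me3 was used to ask whether the promoters of these genes changed under TBT, a measure other than the RNA levels by which the genes were chosen, although earlier H3K4me3 results of these libraries were known. Islands are stretches called as enriched over input in each library by the authors. With 2 input libraries, for TBT and for DMSO, a difference between the inputs cannot be told apart from the treatment in these calls. Regions were islands of the 8 libraries merged where they touched, with reads summed over the islands of a library and given as RPM (reads scaled, as for CPM, to the TMM-adjusted total over all tested regions). Because islands were called in each library, such a sum also follows how much of a region was called, so the log2 ratio of sums is not one of reads per base, and reads per kb of island are given beside it. An island lay within 2 kb of the start (of the gene span for Gbp4, Gbp6 and Iigp1, whose start was not in the table used) in all 8 libraries for 8 of 10 genes. Tgtp1 had one in 4 of 4 TBT and 3 of 4 DMSO libraries, and Gbp4 in 0 of 8. The share of all genes with such islands was not counted, and a gene span is a wider window than a start. Nothing particular to these genes is therefore read from that number. Tested regions had 5516333 to 9878988 reads per library in all.

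Gbp6 was the single gene of the 9 with a tested region whose summed H3K4me3 reads passed in edgeR, beside 0.0862% of all 12767 regions called higher. It had 66.5, 61.7, 65.8 and 68.6 RPM in TBT libraries and 36.3, 26.1, 36.5 and 37.3 RPM in DMSO libraries. All TBT libraries stood far above all DMSO libraries. The log2 ratio of sums was 0.95 ± 0.11 (SE, adjusted p = 0.00273, edgeR), the 4th region by p over the genome. It passed without each library in turn, with adjusted p between 0.000733 and 0.0174 (edgeR).

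Islands at Gbp6 were longer in TBT libraries. Islands in the region (chr5:105283000-105297199) covered 9.2, 8.2, 11 and 10.2 kb in TBT libraries and 4.0, 3.4, 3.2 and 4.4 kb in DMSO libraries. Per kb of island the mean was 6.87 RPM under TBT and 9.16 RPM under DMSO, and with island length as an offset the log2 ratio turned to -0.41 (adjusted p = 0.999, edgeR), a setting under which 0 of all regions passed and 584 had an unadjusted p under 0.05. In TBT libraries 2 and 4 the stretch that was an island in DMSO remained a separate island, and it held 44.9 and 51.7 RPM. Those values lie above the 26.1 to 37.3 RPM of the DMSO libraries. In the authors' deposited table the same span was listed with a log2 concentration of 7.86 in TBT and 6.96 in DMSO (FDR 0.00266).

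**Figure D4:**
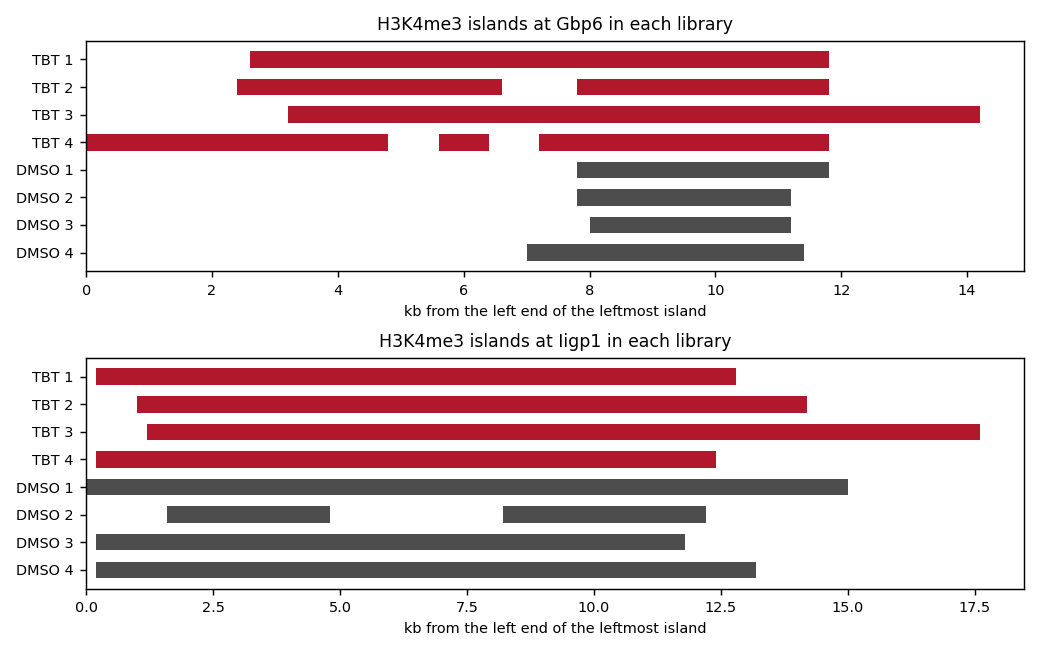
Extent of H3K4me3 islands at Gbp6 and Iigp1 in the 4 TBT libraries (red) and the 4 DMSO libraries (grey), in kb from the left end of the leftmost island. At Gbp6 the TBT islands reach further left than those of DMSO, 8.2 to 11 kb in all against 3.2 to 4.4 kb.

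Iigp1 had 100.2, 105, 112 and 90.4 RPM in TBT libraries and 64.6, 43.8, 74.9 and 70.4 RPM in DMSO libraries. The groups did not overlap, and DMSO replicate 2 was the lowest. The log2 ratio of sums of 0.69 ± 0.13 did not pass in edgeR (95% interval 0.40 to 0.97, adjusted p = 0.0796) and passed in DESeq2 (adjusted p = 0.0160). Islands covered 13.6 kb on average under TBT and 11.7 kb under DMSO, and reads per kb were also higher, at 7.54 RPM under TBT and 5.56 RPM under DMSO. The authors' deposited table ranked this span 4th of 246 H3K4me3 peaks by FDR, with log2 concentrations of 8.51 in TBT and 7.38 in DMSO (FDR 1.09e-06). That table held 24 peaks higher and 222 lower in TBT.

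Igtp had 81.4, 76.0, 79.7 and 80.8 RPM in TBT libraries and 66.8, 58.5, 62.4 and 71.1 RPM in DMSO libraries, without overlap. The log2 ratio of sums was 0.30 ± 0.07 (adjusted p = 0.179, edgeR; adjusted p = 0.00747, DESeq2), with islands of 4.55 kb and 18.3 RPM per kb under TBT and 3.85 kb and 16.8 RPM per kb under DMSO. Irgm2 had 79.0, 65.4, 78.9 and 81.1 RPM in TBT libraries and 58.2, 58.5, 62.2 and 69.1 RPM in DMSO libraries, and the lowest TBT library lay among the DMSO values. The log2 ratio was 0.30 ± 0.08 (adjusted p = 0.307, edgeR; adjusted p = 0.0365, DESeq2). Its islands covered 9.05 kb under TBT and 5.65 kb under DMSO, and per kb of island the reads were lower under TBT, at 8.74 RPM, than under DMSO, at 11 RPM. Gbp3 had 43.3 to 46.0 RPM in TBT libraries and 26.3 to 42.4 RPM in DMSO libraries, with a log2 ratio of 0.31 ± 0.13 (adjusted p = 0.517, edgeR), and per kb 10.8 RPM under TBT and 9.16 RPM under DMSO.

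The other 4 genes had smaller or unsteady differences. Irgm1, with the smallest RNA difference, had 130.3 to 143.9 RPM in TBT libraries and 112 to 133 RPM in DMSO libraries, a log2 ratio of 0.14 ± 0.06, and 13.4 RPM per kb of island in both. Gbp7 had 69.3 to 74.0 RPM under TBT and 64.0 to 74.7 RPM under DMSO (0.06 ± 0.07), with 14.01 RPM per kb under TBT and 15.8 RPM per kb under DMSO, beside an RNA difference of 0.76 ± 0.10 on the log2 scale. Gbp2 had 49.6 to 72.3 RPM under TBT and 51.8 to 72.8 RPM under DMSO (0.02 ± 0.14), with 9.6 RPM per kb under TBT and 7.57 RPM per kb under DMSO. The region at Tgtp1 is 23.6 kb long, holds other islands beside that of the start, and gave 58.3 to 101 RPM under TBT and 15.8 to 91.9 RPM under DMSO (0.72 ± 0.40), with 4.73 RPM per kb under TBT and 5.16 RPM per kb under DMSO. Over the 9 genes the log2 ratios of sums lay between 0.02 and 0.95, and 4 of 9 had no overlap between TBT and DMSO libraries, beside 2.48% of all regions higher without overlap. With island length as an offset the 9 values lay between -0.41 for Gbp6 and 0.44 for Iigp1, 4 of 9 were under 0, and none passed.

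**Figure D5:**
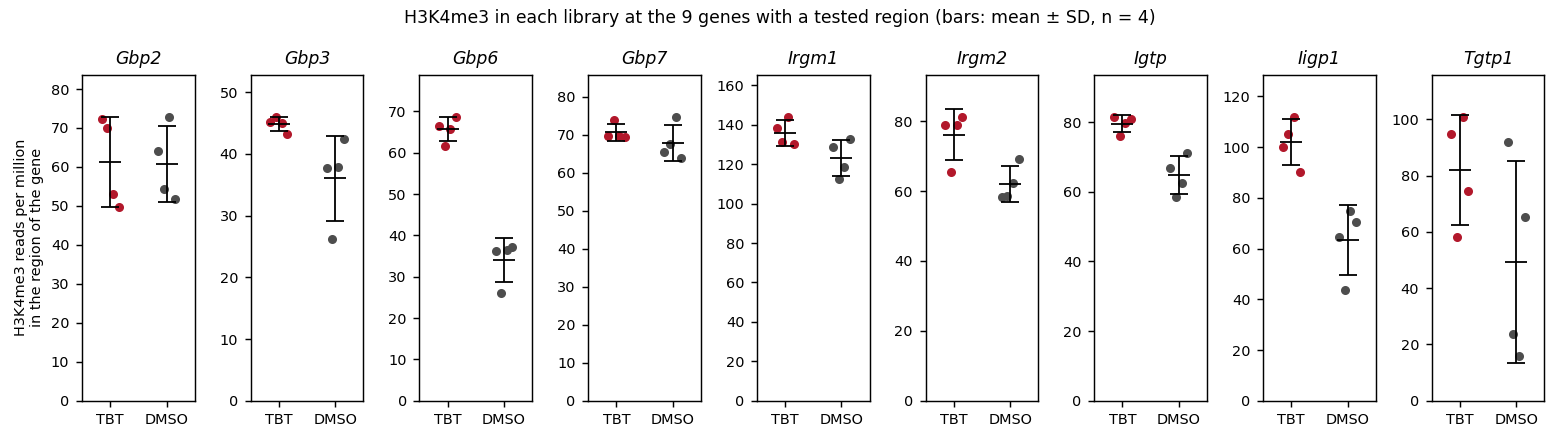
H3K4me3 in RPM (vertical axes, starting at 0) in the region of each gene in the 4 TBT and 4 DMSO libraries, with the mean and SD. The TBT points of Gbp6 (61.7 to 68.6 RPM) lie far from its DMSO points (26.1 to 37.3 RPM), while those of Gbp7 and Gbp2 lie among them.

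H3K27me3 islands at the genes were few. Over the genome such islands numbered 21649 to 34013 in TBT libraries and 17081 to 26890 in DMSO libraries. The part of this in the calls at these genes was not tested. At Iigp1 an island was called in 3 of 4 TBT and 0 of 4 DMSO libraries, with a fold over input of 1.17 to 1.25. Those islands lay at the edges of the gene span, 7.4 to 22.6 kb in length per library. Gbp6 had islands in 2 of 4 TBT and 1 of 4 DMSO libraries, Gbp2, Gbp3, Gbp7 and Igtp in 1 of 4 TBT libraries each, and Irgm1 in 1 of 4 DMSO libraries. Gbp4, Irgm2 and Tgtp1 had none. The fold over input was 1.52 at most, and the authors' deposited H3K27me3 table of 4329 peaks listed none within the windows of these 10 genes.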

How the data were processed

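The authors deposited raw counts per gene symbol for 24 RNA libraries. Per the submitters' processing notes, the tools were FastQC, STAR, SAMtools, SICER, DiffBind and DESeq2 (no versions given) and the builds mm10 and GRCm38. The counting program and its strand setting are not given in the sources used here. Reads given to no gene (5 entries; no feature 20.9% to 24.3%) were left out. A deposited log2 table was not used (24 columns). For each ChIP library the authors deposited islands with ChIP and input read counts, a fold ratio over input and p-values with FDR (window 200, gap 600 bases, FDR 0.001 by the file names, called per library). Their deposited differential tables give log2 concentrations and FDR.

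Genes were tested with edgeR 4.0.16 in R 4.3.3 (TMM, filterByExpr, quasi-likelihood F test, 1 fit of 24 libraries, Benjamini-Hochberg over 12529 genes, threshold 0.05). CPM are TMM-scaled, and log2 CPM use a prior count of 2. H3K4me3 read counts were tested likewise over the 12767 regions with an island in all 8 libraries. DESeq2 1.42.0 was an alternative. Scripts were tested on simulated data. Intervals are at 95%, and the limit for 0 counts uses 3 counts. Libraries of a group differed by more than sampling noise (chi-square per degree of freedom of at least 1.34).

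The genes named were all 10 members, each tested gene of the family and up to 3 genes per other list with the smallest adjusted p under TBT, and the 5 genes most like the members; others (Irf9, Irf1, Atg5, Ptpn2, Ly6a, Col1a1 and the genes given at 0 or few counts) were named after their values were seen. The members and lists were chosen with earlier results of these data known, among them the rise of interferon-induced genes under TBT and AGN194204. These counts, and the p-values of listed genes against DMSO, are therefore no independent support. Other settings tried were size factors, spike-in scaling, no filter, a replicate block, only the groups compared, other island rules and, for H3K4me3, leaving out each library. Island length as an offset was added after the data were seen. Same-numbered RNA libraries deviated with r of -0.05 to 0.12 over all genes, and H3K4me3 libraries with 0.00 to 0.08, so the numbers were not taken as pairs.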

Additional observations from a re-analysis of the deposited data

Results flagged for a closer look

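Of 58 groups of 4 or 6 values at these genes, 4 had a highest or lowest library farther from its neighbour than Dixon's 95% critical value, and chance flags about 1 in 20 groups. Gbp7 RNA had 1 rosiglitazone library at 63.6 CPM, with the next at 48.0 CPM. H3K4me3 at Irgm2 had 1 TBT library at 65.4 RPM, with the next at 78.9 RPM. H3K4me3 at Gbp7 had 1 TBT library at 74.0 RPM, with the next at 69.7 RPM. H3K4me3 at Gbp6 had 1 DMSO library at 26.1 RPM, with the next at 36.3 RPM, and without that library the difference between TBT and DMSO still passed edgeR's threshold.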

How the results depend on the processing

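For the 10 genes, every RNA alternative kept the direction and the side of the threshold against DMSO under TBT and AGN194204, and none passed under rosiglitazone, where Gbp6 turned to -0.00363 with spike-ins and Gbp4 had no value with only these groups. Spike-in scaling moved the counts of called genes to 2095 for TBT, 1208 for AGN194204, 33 for rosiglitazone and 20 for TBT against AGN194204, from 3623, 3014, 130 and 106. Rosiglitazone gave 199 calls with no filter and 236 with only its libraries and DMSO, and TBT against AGN194204 gave 65 with only these groups. In that comparison the sign turned for Gbp7 (0.0662 with spike-ins, 0.000657 with no filter, 0.000285 by DESeq2, 0.00143 with only these groups), Irgm1 (0.0159) and Irgm2 (0.0206, both with spike-ins). With a replicate block the counts were 3882 for TBT, 3264 for AGN194204, 223 for rosiglitazone, 169 for TBT against AGN194204 and 25 for H3K4me3. The cause was not tested.

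H3K4me3 gave 18 called regions, 137 by DESeq2, 30 from islands of at least 2-fold over input, 5 to 10 without 1 of any of the 8 libraries, and 0 with island length as an offset, which raised the spread between libraries to 26.4% (9.83% without it). The offset turned Tgtp1 (-0.12), Irgm2 (-0.33), Gbp7 (-0.17) and Gbp6 (-0.41), and moved Gbp2 to 0.34, Iigp1 to 0.44, Igtp to 0.12, Irgm1 to 0.00453 and Gbp3 to 0.24. Gbp2 lay between -0.0822 and 0.110 without single libraries. Iigp1, Tgtp1 and Gbp2 had no value from islands of at least 2-fold. Gbp4 (8 to 30 counts) and Tgtp1 are limited by depth.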

Other observations

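The nearest tested genes that are not on the family lists were looked up beside each cluster. Beside Igtp and Irgm2, Mrpl22, a mitochondrial ribosome gene 19.98 kb away, had a log2 fold change of -0.05 ± 0.10 under TBT (adjusted p = 0.743, edgeR), and Zfp692, 84.3 kb away, 0.19 ± 0.14 (adjusted p = 0.339). Beside the chromosome 3 cluster, Pdlim5 rose by 0.13 ± 0.03 (adjusted p = 0.00281) and Gtf2b, a general transcription factor gene, fell by 0.26 ± 0.06 (adjusted p = 0.00182) under TBT. Beside Gbp4 and Gbp6, Zfp951 (0.32 ± 0.30) and Lrrc8b (-0.32 ± 0.14) did not pass. On chromosome 11, Trim7, 14.1 kb from Irgm1, had 0.59 ± 0.25 (adjusted p = 0.0702), while Olfr56, 141.9 kb from Tgtp1, rose by 1.41 ± 0.36 under TBT (adjusted p = 0.00164) and 1.29 ± 0.36 under AGN194204 (adjusted p = 0.00491). On chromosome 18, Isoc1, 1694 kb from Iigp1, had 0.17 ± 0.11 under TBT (adjusted p = 0.250) and -0.03 ± 0.11 under AGN194204 (adjusted p = 0.895), while BC023105, 45.8 kb from Iigp1, rose by 1.12 ± 0.26 under TBT (adjusted p = 0.000817) and 1.19 ± 0.26 under AGN194204 (adjusted p = 0.000441).

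Of 10 mesenchymal markers tested, 3 rose and 2 fell under TBT in edgeR's test, beside 28.9% of all genes called in either direction. Ly6a (Sca-1) rose by 0.54 ± 0.07 and Pdgfrb by 0.35 ± 0.05, while Thy1 fell by 0.58 ± 0.07 and Cd44 by 0.41 ± 0.03. Pecam1, the single tested endothelial marker of 4, fell by 1.02 ± 0.28 under AGN194204 (adjusted p = 0.0043) and had a log2 fold change of -0.46 ± 0.25 under TBT that did not pass (adjusted p = 0.180).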
